A study of Mus musculus with 14 samples.

Results

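NKX2.2 binding was examined at the zinc finger genes of the Zfp, Zbtb, Zscan and Zkscan symbol families. Of the 6758 regions in the authors' deposited csaw table, 143 had as their nearest protein-coding gene one whose symbol starts with Zfp, Zbtb, Zscan or Zkscan followed by a digit. They belonged to 98 genes. The table compares NKX2.2 chromatin immunoprecipitation and sequencing (ChIP-seq), which recovers the DNA that an antibody pulls down with a bound protein, between 3 cultures given siRNA against Klf4 and 4 given scramble siRNA. All were wild-type alphaTC6 cells, a tumour-derived mouse line of the pancreatic alpha cell, which makes glucagon, 48 h after a lipid transfection of the siRNA. The 7 matching input samples were not analysed here. A single cell line stands for alpha cells in every group, and the table holds no expression values with which to check alpha-cell markers or the knockdown itself.

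Each region joins neighbouring short windows in which csaw counted reads, and carries the authors' log2 fold change of a representative window, a p-value and a false discovery rate (FDR). The table has no value for any single culture, so the spread between cultures enters only through the authors' p-value and FDR, and the depth is unknown. It does not name the numerator of the fold change: "up" and "down" below mean a positive or negative listed value, not gain or loss upon Klf4 knockdown. Gene positions are those of GRCm38.p6, the assembly behind the build mm10 that the submitters' processing notes name. They give the bounds of a gene but not its exons, introns or untranslated regions. A site is therefore described only by those bounds, as outside them or as inside or overlapping them.

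Most proteins of these families bind DNA through arrays of C2H2 zinc fingers, each of which contacts a few bases. In many Zfp proteins a KRAB domain recruits the corepressor TRIM28 and, through it, the histone methyltransferase SETDB1, a pathway best known for silencing transposable elements. ZBTB proteins carry a BTB domain that pairs them and can recruit corepressors such as BCOR, and ZSCAN and ZKSCAN proteins pair through a SCAN domain. NKX2.2 is a homeodomain factor whose core site holds AAGTG, and KLF4 is itself a zinc finger factor that binds CACCC boxes. The symbol rule also takes in Zfp36l2, which has CCCH fingers and promotes mRNA decay in place of binding DNA.

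A larger share of the zinc finger regions than of all listed regions lay at gene starts. Of the 143 regions, 56 (39.2%, exact 95% binomial interval 31.1 to 47.7%) had their midpoint within 1 kb of either end of the nearest gene, against 26.0% (25.0 to 27.1%) of the 6726 regions on assembled chromosomes. The bounds of the gene were overlapped, in whole or in part, by 92 of the 143 (64.3%, 55.9 to 72.2%) and by 56.0% (54.8 to 57.2%) of all. RefSeq promoter windows, 250 bases before to 50 after an annotated start, were at hand for 77 of the 98 genes, which held 104 of the regions. Of these, 43 regions (41.3%, 31.8 to 51.4%) overlapped a window, each at a different gene, against 22.3% (21.2 to 23.4%) of the 5374 regions of all genes with a window. These intervals treat regions as independent, which neighbouring regions need not be, and they cover counting error only; the difference itself was not tested. Of the 49 sites within 1 kb of an end whose gene had a window, 44 were within 1 kb of a start, so that "gene end" mostly meant the start of the gene. By family, 41 of 111 Zfp regions, 7 of 22 Zbtb regions, 4 of 6 Zkscan regions and all 4 Zscan regions were within 1 kb of an end.

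**Figure D1:**
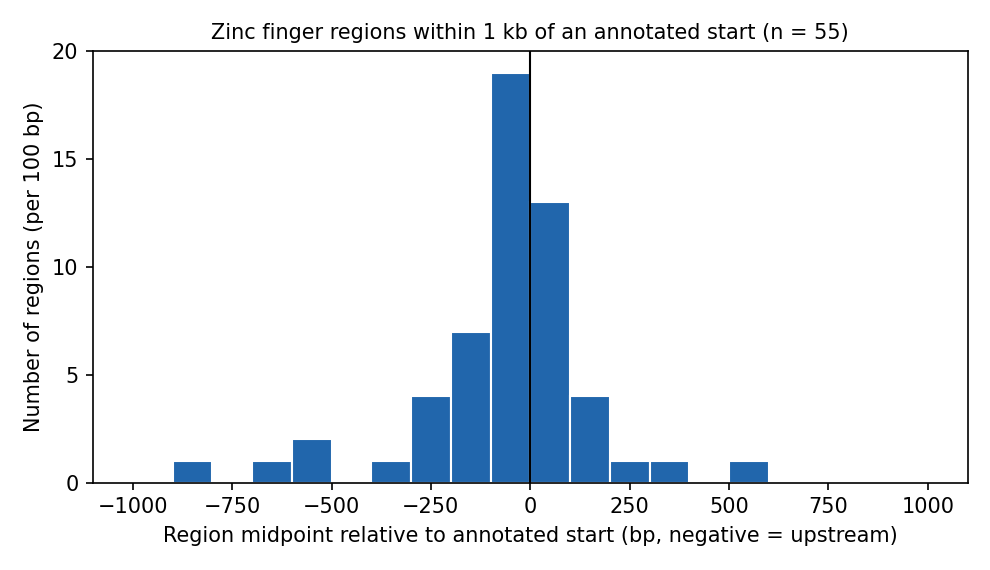
The histogram counts, per 100 bp, the 55 zinc finger regions whose midpoint lay within 1 kb of an annotated start of their gene; the horizontal axis is the distance to that start in bp and negative values are upstream. The regions gather at the start: 47 of the 55 lie within 250 bp of it, the median offset is -21 bp, and 35 are on the upstream side.

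The promoters of the 3 members with both a region over the promoter and an unadjusted p under 0.05 (Zfp282, Zscan12 and Zbtb43) are shown with that of Zfp212, a neighbour of Zfp282 whose listed value had the opposite sign; Zfp212 was picked after its value was seen. Each line gives the 250 bases before the annotated start, 5′ to 3′ on the gene's strand, from RefSeq on GRCm38.p6, with every AAGTG or CACCC on either strand (also read as CACTT or GGGTG) in capitals.
Zfp282 (chr6:47877305-47877554, plus strand): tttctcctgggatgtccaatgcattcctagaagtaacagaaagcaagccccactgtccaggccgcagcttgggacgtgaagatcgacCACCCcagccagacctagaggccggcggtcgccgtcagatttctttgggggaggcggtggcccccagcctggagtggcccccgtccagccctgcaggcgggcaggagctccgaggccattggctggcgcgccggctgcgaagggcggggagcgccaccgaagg
Zfp212 (chr6:47920318-47920567, plus strand): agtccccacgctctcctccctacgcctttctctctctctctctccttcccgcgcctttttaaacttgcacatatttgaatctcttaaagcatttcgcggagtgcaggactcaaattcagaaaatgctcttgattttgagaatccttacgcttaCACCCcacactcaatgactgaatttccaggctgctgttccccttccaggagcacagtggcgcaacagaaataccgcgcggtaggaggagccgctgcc
Zscan12 (chr13:21362570-21362819, plus strand): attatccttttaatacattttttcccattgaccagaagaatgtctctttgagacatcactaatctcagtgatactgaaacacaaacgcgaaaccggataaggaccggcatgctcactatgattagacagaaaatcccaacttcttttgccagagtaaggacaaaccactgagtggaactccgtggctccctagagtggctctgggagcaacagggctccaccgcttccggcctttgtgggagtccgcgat
Zbtb43 (chr2:33468533-33468782, minus strand): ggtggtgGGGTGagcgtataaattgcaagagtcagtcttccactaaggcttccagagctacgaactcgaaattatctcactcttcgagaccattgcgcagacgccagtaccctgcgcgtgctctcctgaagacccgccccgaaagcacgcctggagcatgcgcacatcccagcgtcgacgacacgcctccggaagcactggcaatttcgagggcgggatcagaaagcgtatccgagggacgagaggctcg
None of the 4 held AAGTG or CACTT in these bases. Zfp282, Zfp212 and Zbtb43 each held 1 CACCC or GGGTG, starting at position -163, -97 and -243, where -1 is the base before the start, and Zscan12 held none. Each of these boxes lay outside the listed region, which covered 104, 17 and 60 of the 250 bases, respectively. In a stretch of this length, 40.7% of the 32851 RefSeq promoters held the AAGTG core and 52.0% the CACCC box. Of the 49 zinc finger promoters under a listed region, 22 (44.9%) held AAGTG and 20 (40.8%) CACCC. Of the 1513 promoters of protein-coding genes under a listed region, 43.0% held AAGTG and 54.7% CACCC. The zinc finger promoters under a region were also poorer in G and C: their median was 53.2% with 11 CpG dinucleotides, against 60.0% and 17 for those 1513. The 426 zinc finger promoters under no region had a median of 54.8% and also 11 CpG. Of these, 45.5% held AAGTG and 53.3% CACCC. Differences between these shares were not tested. Of 475 zinc finger promoters, 49 lay under a region (10.3%), against 7.12% of the 21262 promoters of all protein-coding genes.

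By gene, the families were listed about as often as others. A listed region was nearest to 98 of the 465 genes (21.1%, exact interval 17.5 to 25.1%) and to 20.7% of all 21896 protein-coding genes. The counts were 78 of 397 Zfp genes, 12 of 41 Zbtb genes, 4 of 16 Zscan genes and 4 of 11 Zkscan genes. Among the 98 genes, 73 had 1 region, 18 had 2 and 4 had 3, while Zfp386 had 6 and Zbtb20 and Zfp608 had 8 each. Chromosome 7 carried the most, with 22 regions at 18 genes. The regions were as wide as others, with a median of 110 bp and 3 windows in both sets, but 30 of the 143 (21.0%) consisted of 1 window against 11.9% in the whole table.

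Of the 143 regions, 1 passed an FDR of 0.05, a share of 0.699% against 1.36% of all 6758 regions. At an unadjusted p under 0.05 there were 18 (12.6%) against 11.2%, of which 7 were up and 11 down; over all regions 510 were up and 249 down. Of the 11 down sites, 5 lie in the immunoglobulin heavy chain locus and were assigned to Zfp386 by distance, and without Zfp386 there were 13 of 137 (9.49%). Both shares were near the background, so the counts are no result about the zinc finger genes as a group. The log2 fold change of the 143 ran from -1.26 to 1.08 with quartiles of -0.27 and 0.20 and a median of -0.01 (95% interval from order statistics -0.05 to 0.02). That interval treats regions as independent, which neighbouring regions need not be. The median over all regions was 0.04. Negative values were listed for 73 of the 143 (51.0%) and for 43.2% of all regions. The table's own direction column named 55 of the 143 regions up, 60 down and 28 mixed, and 3188 up, 2257 down and 1313 mixed over the whole table.

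**Figure D2:**
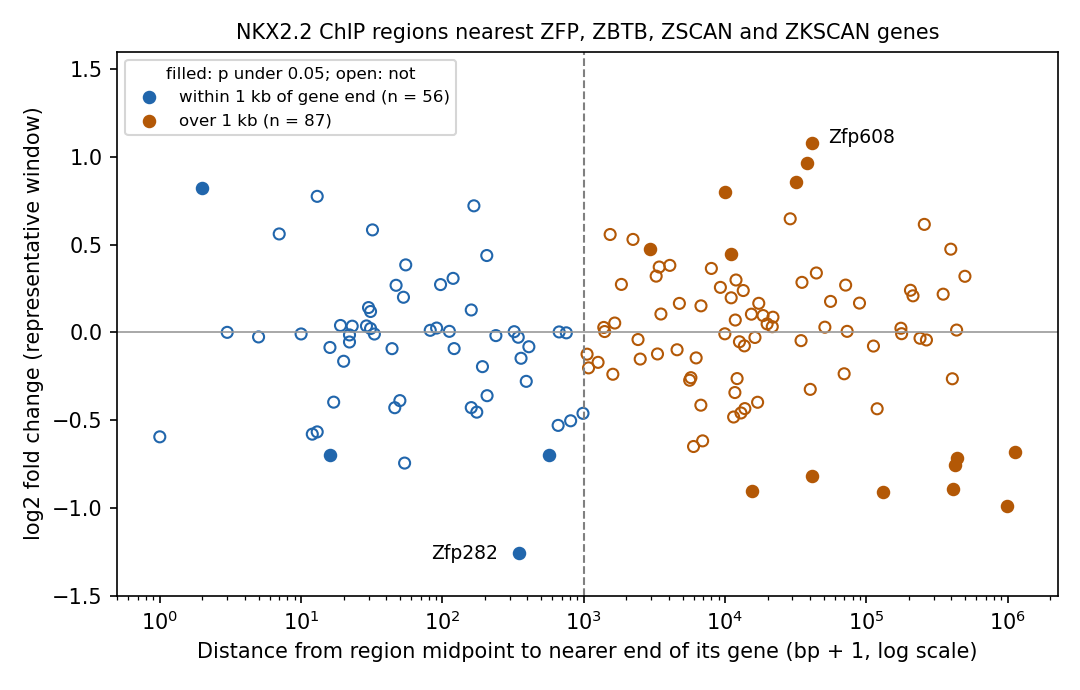
Each of the 143 zinc finger regions is drawn at the distance from its midpoint to the nearer end of its gene (bp plus 1, log scale) and at its listed log2 fold change; the dashed line is the 1 kb limit and filled points have an unadjusted p under 0.05. Filled points number 4 of 56 (7.14%) to the left of the line and 14 of 87 (16.1%) to the right, 5 of these 14 assigned to Zfp386, against 7.42% and 12.2% of all assigned regions, and the region at Zfp282, at -1.26, is the lowest of all.

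The medians of sites within 1 kb of a gene end and of the remaining sites were close with representative windows and further apart with best windows. The 56 near sites had a median log2 fold change of -0.02 (quartiles -0.39 and 0.06) and 32 of them (57.1%) were negative. The 87 others had a median of 0.01 (quartiles -0.25 and 0.25), and 41 (47.1%) were negative. The difference of medians, near minus the rest, was -0.03. It was -0.19 with best windows (medians of -0.15 and 0.04) and -0.09 in Zfp genes alone. Over all 6726 assigned regions the difference was -0.15 (-0.38 with best windows), from a median of -0.05 in 1752 near sites to 0.10 in 4974 others. The near zinc finger sites thus lay close to other near sites, of which 58.5% were negative, and the median of the distal ones was below that of other distal sites (0.10), of which 37.3% were negative. Order statistics gave the distal zinc finger median an interval of -0.054 to 0.104, with its upper limit close to the median of other distal sites (0.101). The interval treats regions as independent, though several genes held more than 1 of them, so it does not decide whether these medians differ. The interval of the near median was -0.093 to 0.006. The 6 regions assigned to Zfp386 made up part of the lower distal median: without them it was 0.03 and 43.2% were negative. No test of these medians was made, since regions are not replicates. The limit fell between a site at 987 bp and one at 1055 bp. With the distance taken to the annotated start, for the 104 regions whose gene has one, the medians were -0.03 both within and beyond 1 kb. The difference changed sign to 0.01. Over the 5374 assigned regions whose gene has one, they were -0.05 and 0.10. Of the 104, 58.1% of the 43 over a promoter window and 59.0% of the other 61 were negative, against 51.0% of all 143. The change of definition and the loss of regions therefore cannot be told apart.

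**Figure D3:**
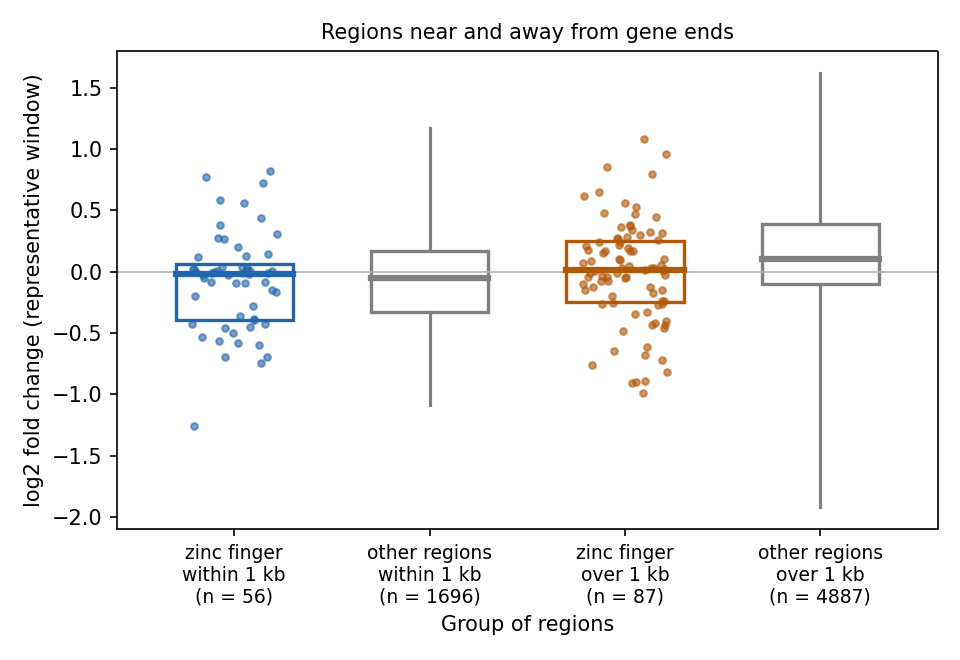
Listed log2 fold change of regions within and beyond 1 kb of a gene end, for the zinc finger genes (points are regions) and for all other assigned regions (lines reach to the lowest and highest value); boxes span the quartiles and thick lines are medians. The zinc finger medians are -0.02 and 0.01, against -0.05 and 0.10 for the other regions.

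The sole region at an FDR of 0.05 was at the start of Zfp282, which encodes a KRAB zinc finger protein. It lies on chromosome 6 from 47877451 to 47877660, inside the gene's bounds, with its midpoint at the annotated start (offset 0 bp), and covers the last 104 of the 250 upstream bases printed above. All 3 of its windows were counted as down in the authors' deposited table, with a log2 fold change of -1.26 (p-value 0.000505, FDR 0.0416). It was 1 of 6 regions at that FDR among the 1752 within 1 kb of a gene end, and its value was the lowest of the 1752. The call was close to the threshold: its best-window FDR was 0.0462, and with the FDR recomputed over the 6630 regions of 1 kb or narrower on assembled chromosomes it was 0.0540.

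Zfp282 stands in a run of 7 Zfp genes over 271 kb of chromosome 6 (47815536 to 48086986), the only one of 35 such runs (3 or more family genes with gaps of at most 200 kb) in which every gene had a listed region. The run was singled out because of Zfp282. Its 8 regions went both ways, with 4 negative and 4 positive values. A region at the start of Zfp212 (47920551 to 47920610, 2 windows) was listed at 0.77 (p-value 0.0516, FDR 0.454). At Zfp746, which encodes PARIS, a repressor known as a target of the ubiquitin ligase parkin, a region inside the gene bounds (48083901 to 48084160) had 4 of 6 windows counted as up, at 0.48 (p-value 0.0285, FDR 0.345). The regions at the starts of Zfp398 (0.04), Zfp786 (-0.27) and Zfp956 (-0.09) had p-values of 0.392 or higher. The strongly negative value at Zfp282 was therefore not shared by its neighbours on either side, Zfp398 and Zfp212.

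**Figure D4:**
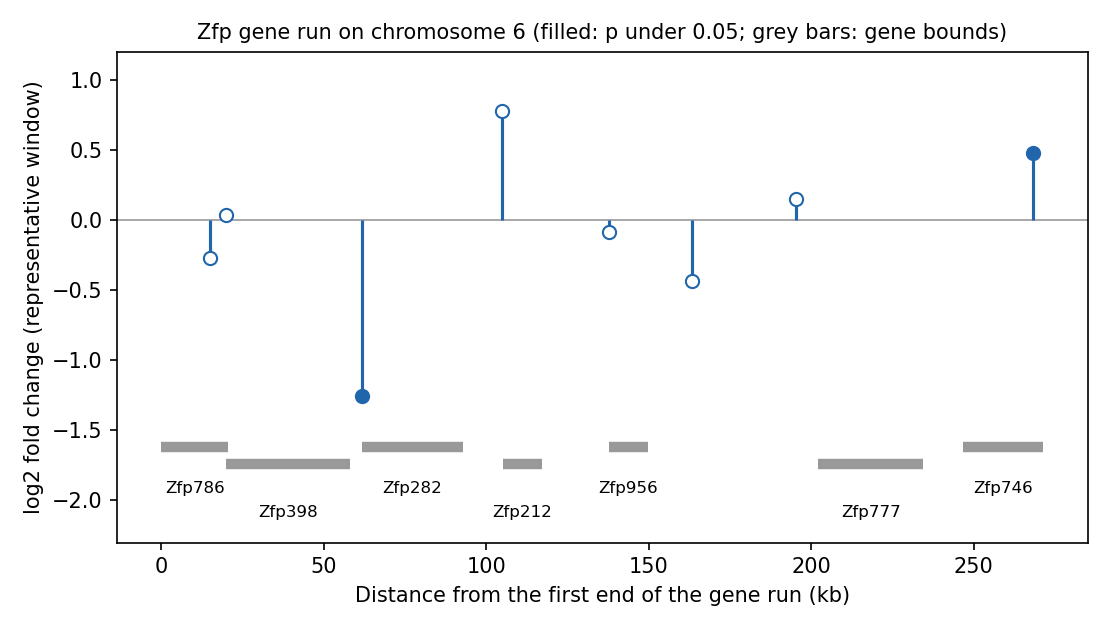
Listed log2 fold changes of the 8 regions in the Zfp gene run on chromosome 6, against distance in kb from the first end of the run; grey bars are gene bounds and filled points have an unadjusted p under 0.05. Zfp282 at -1.26 lies between Zfp398 at 0.04 and Zfp212 at 0.77.

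The other runs of zinc finger genes varied in how many of their genes had a listed region. Of all 35 runs, 13 had no listed region, and 41 of their 224 genes had one. A run of 15 genes on chromosome 7, from Zfp84 to Zfp146, had 6 regions at 5 genes, 4 of them within 1 kb of a gene end, with a median log2 fold change of -0.20. Of 5 genes from Zscan12 to Zkscan8 on chromosome 13, 3 had regions, 4 of the 5 regions negative with a median of -0.41. The region at the start of Zscan12, a SCAN-domain gene, had 2 of 3 windows counted as down and was listed at -0.70 (p-value 0.0393, FDR 0.398). In the same run the region at an end of Zkscan3, known as a repressor of autophagy genes, was listed at -0.60 with a p-value of 0.126. In a run of 23 genes on chromosome 13 from Zfp712 to Zfp273, only 3 genes had a region.

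The near sites with most windows belonged to genes of varied function. The region at the start of Zfp142 (chromosome 1, 74587801 to 74588360, 12 windows, the most of any zinc finger region) was listed at -0.74 (p-value 0.0907, FDR 0.570). At Zfp384 (11 windows) the value was -0.02, with a p-value of 0.955. Zfp143, an activator that binds many promoters, had a start region of 7 windows at -0.43 (p-value 0.481) and a second inside the gene at 0.10. Zbtb40 had 6 windows at 0.02 (p-value 0.891). Of the near sites with 5 windows, that of Zfp628 stood at -0.45 (p-value 0.118), Zkscan14 at 0.72 (p-value 0.187), Zfp719 at 0.27 (p-value 0.312) and Zkscan8 at -0.01 (p-value 0.968). Values of either sign thus occurred at these sites, and none passed an unadjusted p of 0.05. Start regions with values near 0 included those of Zfp281, a pluripotency factor (-0.03), Zfp148, which binds GC-rich boxes (0.02), and Zkscan1 (0.12). Zfp106, an RNA-binding member, was listed at -0.40 with a p-value of 0.611.

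Among Zbtb genes, 22 regions at 12 genes had a median log2 fold change of 0.06, 13 of them positive. The region at the start of Zbtb43 (chromosome 2, 33468551 to 33468610) was the highest of the near sites, at 0.82, with 1 of 2 windows counted as up (p-value 0.0429, FDR 0.414). Of 21 BTB zinc fingers listed for their known roles, 6 had a region, 13 regions in all, none of them at an FDR of 0.05; with 1.36% of all regions called, a count of 0 among 13 says nothing about these genes. At an unadjusted p under 0.05 there was 1 of the 13. Zbtb20, a repressor expressed in islets and liver, had 8. Of these, 6 overlapped its bounds, 1 of them only in part. The region at 43503301 to 43503310 on chromosome 16 lay inside, 131 kb from the nearer end of the gene. It was listed at -0.91 in its single window (p-value 0.00537, FDR 0.150). The other 7 ran from -0.08 to 0.24 with p-values of 0.531 or higher, including an 8-window region 159 bp from an end of the gene at 0.13. Among its 8 listed regions, this single window was thus the 1 with a p-value under 0.05. Zbtb7a, a repressor known for silencing fetal globin, had 1 region at 0.53 (p-value 0.360), Zbtb18, a neuronal repressor, 1 at 0.32 (p-value 0.335), and Zbtb1, needed for lymphoid development, 1 at 0.36 (p-value 0.696). Zbtb46, a marker of classical dendritic cells, stood at 0.09, and Zbtb24, mutated in an immunodeficiency with centromere instability, at -0.0026. Of the 4 CCCH genes only Zfp36l2 was listed: a region 658 bp from its nearer end at -0.53 (p-value 0.112) and a distal one at 0.27 (p-value 0.386).

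Of the 7 up sites with a p-value under 0.05, 6 were over 1 kb from a gene end, as were 457 of the 510 such sites over all regions. The highest, on chromosome 18 from 54847001 to 54847160, lay 41.0 kb from an end of Zfp608, outside its bounds, and was listed at 1.08 with 1 of 4 windows counted as up (p-value 0.00459, FDR 0.139). Its nearest gene of any type was Gm33732. The other 7 regions assigned to Zfp608 ran from -0.32 to 0.62 with p-values of 0.126 or higher, and 5 of the 8 were over 200 kb from the gene. Zfp407, known to act in insulin-stimulated glucose uptake of adipocytes, had 2 regions inside its bounds at 0.45 (p-value 0.0119, FDR 0.231) and 0.96 (p-value 0.0272, FDR 0.339) and another at 0.02. A region 9.99 kb from Zfp90 stood at 0.80 (p-value 0.0124, FDR 0.232) and lay inside the bounds of Gm34026, which is not among the protein-coding genes. A region 31.8 kb from Zfp831 was listed at 0.86 (p-value 0.0213, FDR 0.300), with both its windows counted as up. The gene of any type nearest to it was Vmn1r-ps1. A second region, inside Zfp831, stood at 0.34 (p-value 0.441). None of these up sites passed an FDR of 0.1.

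Of the 11 down sites with a p-value under 0.05, 5 were assigned to Zfp386 by distance alone. They lay on chromosome 12 between 114925551 and 115638560, 409 to 1122 kb from Zfp386, and inside the bounds of Igh, the immunoglobulin heavy chain locus, which is not among the protein-coding genes of the gene table. The widest, 115637151 to 115638560, had all 10 windows counted as down, at -0.89 (p-value 0.00428, FDR 0.135). The 6 Zfp386 regions were all negative, from -0.99 to -0.26. By position they belong to Igh and not to the zinc finger gene. With the nearest gene of any type in place of the nearest protein-coding one, 97 regions were zinc finger sites and 7 of them (7.22%) had a p-value under 0.05. Other down sites were a single window 15.6 kb from Zfp982 at -0.90 (p-value 0.00605, FDR 0.159), whose 2 neighbours stood at -0.46 and -0.65. The gene of any type nearest to that window was Gm46898. A region 41.4 kb from Zfp217, an oncogene that works with CtBP corepressors, was listed at -0.82 (p-value 0.0249, FDR 0.326). That region lay inside the bounds of Gm17619, which is not among the protein-coding genes. The other 2 regions assigned to Zfp217 stood at -0.34 and -0.24. At Zfp91, a single window 568 bp from the start was listed at -0.70 (p-value 0.0310, FDR 0.360), while a second region inside the gene stood at 0.38. The single window also lay inside the bounds of Gm44505, and the end of another protein-coding gene was closer to it, at 332 bp.

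**Figure D5:**
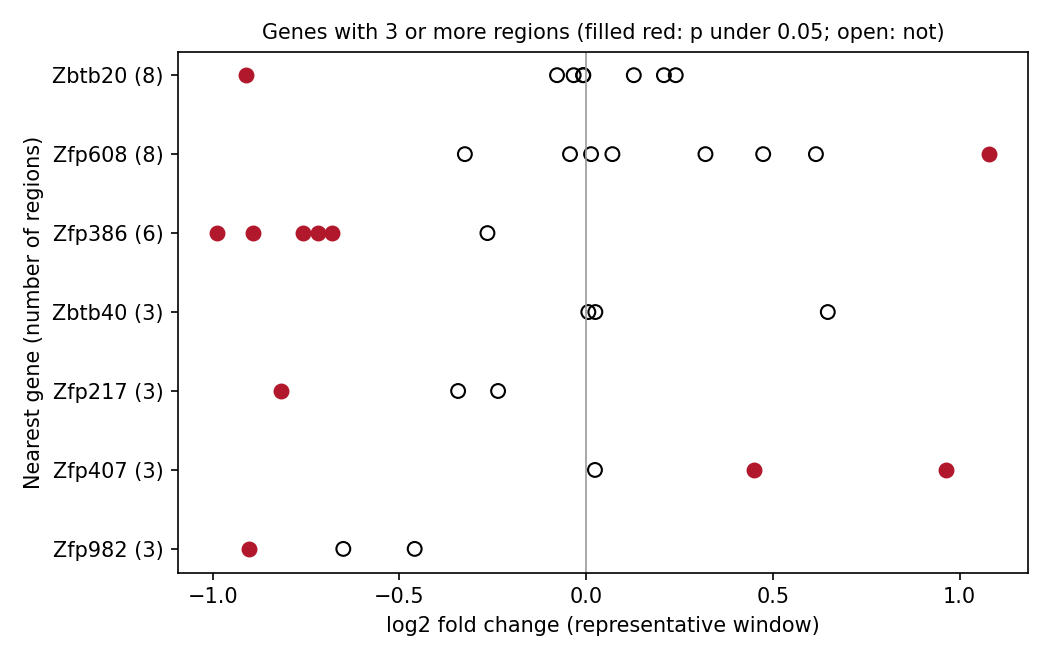
Listed log2 fold change of every region of the 7 zinc finger genes with 3 or more regions; the number of regions is in parentheses and filled red points have an unadjusted p under 0.05. Regions assigned to Zfp386, which lie inside the bounds of Igh, and those of Zfp217 and Zfp982 are all negative. Those of Zfp407 and Zbtb40 are all positive, though the lowest are near 0, at 0.02 and 0.006. Zbtb20 and Zfp608 have both signs.

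The corepressors and BTB factors that work with these proteins were examined from a list of 33 genes. A listed region was nearest to 14 of them (20.7% of all protein-coding genes had one), 36 regions in all, none at an FDR of 0.05 in either direction, against 1.36% of all regions. Their median log2 fold change was -0.02, with 19 negative. No region was nearest to Trim28 or Setdb1, the partners of KRAB zinc fingers. Hdac4, a histone deacetylase, had 8, and 2 of these, both outside the gene, were the 2 of the 36 regions with an unadjusted p under 0.05 (5.56%, against 11.2% of all regions), at 0.96 (p-value 0.00316, FDR 0.118) and 0.37 (p-value 0.00905, FDR 0.200). The region at one of the 2 ends of Cbx3, a heterochromatin protein, was listed at -0.72 (p-value 0.0706, FDR 0.521). That of Cul3, a ubiquitin ligase scaffold that BTB proteins bind, stood at -0.31 (p-value 0.374).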

How the data were processed

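NKX2.2 ChIP-seq and input libraries came from alphaTC6 cells given Klf4 or scramble siRNA (14 samples: 3 and 4 ChIP, 3 and 4 input). The one deposited table is the authors' csaw comparison, per the series' design text, and holds no column of values per sample. Per the file headers it gives p-values and FDR values deposited by the authors, log2 fold changes deposited by the authors on an unstated scaling, and numbers of windows. The submitters' processing notes name mm10, FastQC, Bowtie2 and MACS2 without roles. The window filter, covariates and numerator are not given in the sources used here. FDR values equal a Benjamini-Hochberg adjustment of the p-values over all 6758 regions.

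The 21896 protein-coding genes of RefSeq GRCm38.p6 were searched for the one nearest each region (distance 0 if overlapping, ties to the gene whose end is closer to the midpoint). As a check of the build, 1546 midpoints lay within 500 bp of a gene end, and 164 and 185 after shifts of 100 kb. Promoter sequences were matched by gene ID. The planned count test could not be run without counts per sample, so no test was added to the authors' own. The assignment and adjustment were tested on simulated data. Regions named are those at an FDR of 0.05, the 6 smallest p-values per sign, genes with 4 or more regions, the regions with most windows overall and near gene ends, and the fixed lists; Zfp212, its gene run, the other runs and further examples were picked after their values were seen. Some genes of the fixed lists are not reported here by name. The members and lists were chosen with earlier results of these data known. Scripts ran in Python 3.11.15 (pandas 2.3.3, numpy 2.4.6, scipy 1.17.1; figures by matplotlib 3.10.9).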

Additional observations from a re-analysis of the deposited data

How the results depend on the processing

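The count of 1 zinc finger region at an FDR of 0.05 was 0 at an FDR of 0.01 and 0 with the FDR recomputed over narrow regions on assembled chromosomes; at the unadjusted p under 0.05 it was 18. It stayed 1 under the other 4 alternatives. That count of 18 became 7 of 97 with the nearest gene of any type and 9 of 110 when regions had to overlap or lie within 10 kb of the gene, which leaves fewer regions. The median log2 fold change of -0.01 was -0.0536 with best windows, and reversed to 0.0039 with 2 or more windows, 0.0555 in Zbtb genes alone and, in an alternative chosen after seeing the data, 0.0024 without Zfp386. The difference between near and remaining sites, -0.03, was negative in 10 of its 11 alternatives, down to -0.19 with best windows (-0.38 over all regions). It reversed to 0.0057 with annotated starts, an alternative that kept only 104 regions and was chosen after seeing the data. The share of near sites was 48.25% with a 3 kb limit. The causes were not tested. No paired analysis was possible because no column belongs to a sample or replicate. For the same reason leaving out replicates, another normalization, DESeq2 and a low-count filter were not run. With depth unknown, a region that did not pass may still differ.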
